A study of Mus musculus with 9 samples.

Results

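Promoter DNA methylation after siRNA against DNMT3b was examined in embryonic mouse heart muscle cells by comparing the 3 libraries transfected with DNMT3b siRNA with the 3 transfected with negative siRNA. These are 6 of the 9 libraries of the study, and the other 3 received DNMT3a siRNA. They were chosen by their siRNA label alone. The starting material of all 9 libraries was ventricular tissue of E13.5 (embryonic day 13.5) embryos of CD-1 mice, pooled within litters. After 48 h in culture the cells received 0.012 pmol siRNA, harvest followed 72 h later, and cardiomyocytes were then isolated with magnetic beads against VCAM1. Each knockdown used a mixture of 4 siRNAs, and the negative siRNA was the AllStars control. Genomic DNA was treated with bisulfite, which leaves methylated cytosine as C and turns unmethylated cytosine into a base read as T. Amplicons from the promoters of 15 genes, listed as 2 per gene, were then sequenced. A methylation level is the percent of reads that carry C at a CpG, and a difference in points is the level with DNMT3b siRNA minus the level with negative siRNA.

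DNMT3B is one of the mammalian de novo DNA methyltransferases. It adds methyl groups to CpGs that carry none, while DNMT1 copies existing methylation to the new strand after replication. Methylation of CpG-rich promoters is usually low at active genes, whereas promoters with few CpGs are often methylated in part. In the heart, the amplified genes have well-known roles: sarcomere proteins that make up the contractile machinery, natriuretic peptides secreted by cardiomyocytes, inhibitors of cyclin-dependent kinases that restrain cell division, and transcription factors. Cdkn1c belongs to an imprinted cluster, in which one parental allele is methylated.

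The deposited tables listed 355 CpGs in 30 regions, of which 310 CpGs in 26 regions had at least 30 reads in all 9 libraries. Of the other 45 CpGs, 35 lay in 4 regions without reads (Cdkn1A_2, Cdkn1B_2, Cdkn1C_2 and Mef2c_2) and 10 had too few reads. Cdkn1B_2 and Cdkn1C_2 list 104 cytosines in common, 12 of them CpGs. Each also shares 7 CpGs with Cdkn1B_1, so the 355 listed CpGs are not all distinct. Tested CpGs were covered by 35 to 92355 reads, with a median of 7963.5. Summed over all cytosines, the 6 libraries held between 27193672 and 31839328 base calls. The median 95% Wilson interval of a level reached 0.463 points to either side and the widest 8.87 points. These intervals cover counting error only, since reads of one PCR fragment are not independent molecules. Outside CpGs, 0.198% ± 0.018 (SD, n = 3) of calls were C with negative siRNA and 0.190% ± 0.0019 (SD, n = 3) with DNMT3b siRNA. The data hold DNA only, so neither the amount of DNMT3b left nor heart muscle markers were analysed here. In DNA from many cells, a lower level in each cell and another mix of cells cannot be told apart. Nothing in the labels says whether the 3 libraries of a group came from separate litters, so the tests measure the spread between these libraries.

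Cytosine patterns of 10 tested amplicons matched RefSeq promoter sequence of the GRCm38 assembly (mm10), which gives their place in the genome. The other 16 tested amplicons were not placed and are given by offset, counted from 1 at the first base of the amplicon. The stretches upstream of the annotated start site are shown for 3 of them, because they carry CpGs whose levels are described one by one in what follows. Each is RefSeq sequence, 5′ to 3′ on the strand of the gene, with tested CpGs in capitals. No annotated gene of the RefSeq table overlaps these 3 stretches.
Cdkn1A_1 (chr17:29090729-29090900, plus strand): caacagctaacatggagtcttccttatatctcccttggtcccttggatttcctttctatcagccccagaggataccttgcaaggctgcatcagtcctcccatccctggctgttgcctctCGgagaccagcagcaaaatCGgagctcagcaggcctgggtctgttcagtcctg
Myh7b_1 (chr2:155611091-155611242, plus strand): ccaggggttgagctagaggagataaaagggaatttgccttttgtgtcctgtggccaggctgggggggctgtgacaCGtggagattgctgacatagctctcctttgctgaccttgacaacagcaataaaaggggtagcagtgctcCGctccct
NPPA_1 (chr4:148000521-148000721, plus strand): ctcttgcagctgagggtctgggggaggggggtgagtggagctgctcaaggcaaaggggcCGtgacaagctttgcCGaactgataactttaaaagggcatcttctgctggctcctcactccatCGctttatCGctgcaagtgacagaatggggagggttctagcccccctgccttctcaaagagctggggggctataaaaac

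The last base of the NPPA_1 stretch is itself the C of a tested CpG whose G is the first base of the annotated transcript, so it stays in lower case. CpGs are sparse in these promoters: 2 whole tested CpGs stand in the Cdkn1A_1 and Myh7b_1 stretches and 4 in NPPA_1.

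With DNMT3b siRNA, mean methylation was lower in 21 of 26 regions and at 213 of 310 CpGs, and no single region or CpG passed the test. CpGs of the same amplicon are not independent of one another, so counts of CpGs here and below are not counts of separate observations. Averaged over the 26 regions, the level was 37.15%, 35.95% and 37.54% in the 3 negative libraries and 35.001%, 35.30% and 34.76% in the 3 DNMT3b libraries. The 2 groups did not overlap, at 35.02% ± 0.27 against 36.9% ± 0.83 (SD, n = 3 each). The difference of -1.86 points had p = 0.1 by a two-sided exact permutation test, the smallest p that 3 against 3 libraries allow. Of the 22 regions with a level of at least 2% in the negative libraries, 21 were lower and only Cdkn1A_1 was higher. By size, 13 regions were lower by more than 1 point, 8 by more than 2 points and 5 by more than 4 points. The plot of regions by library shows where the 2 groups separate.

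**Figure D1:**
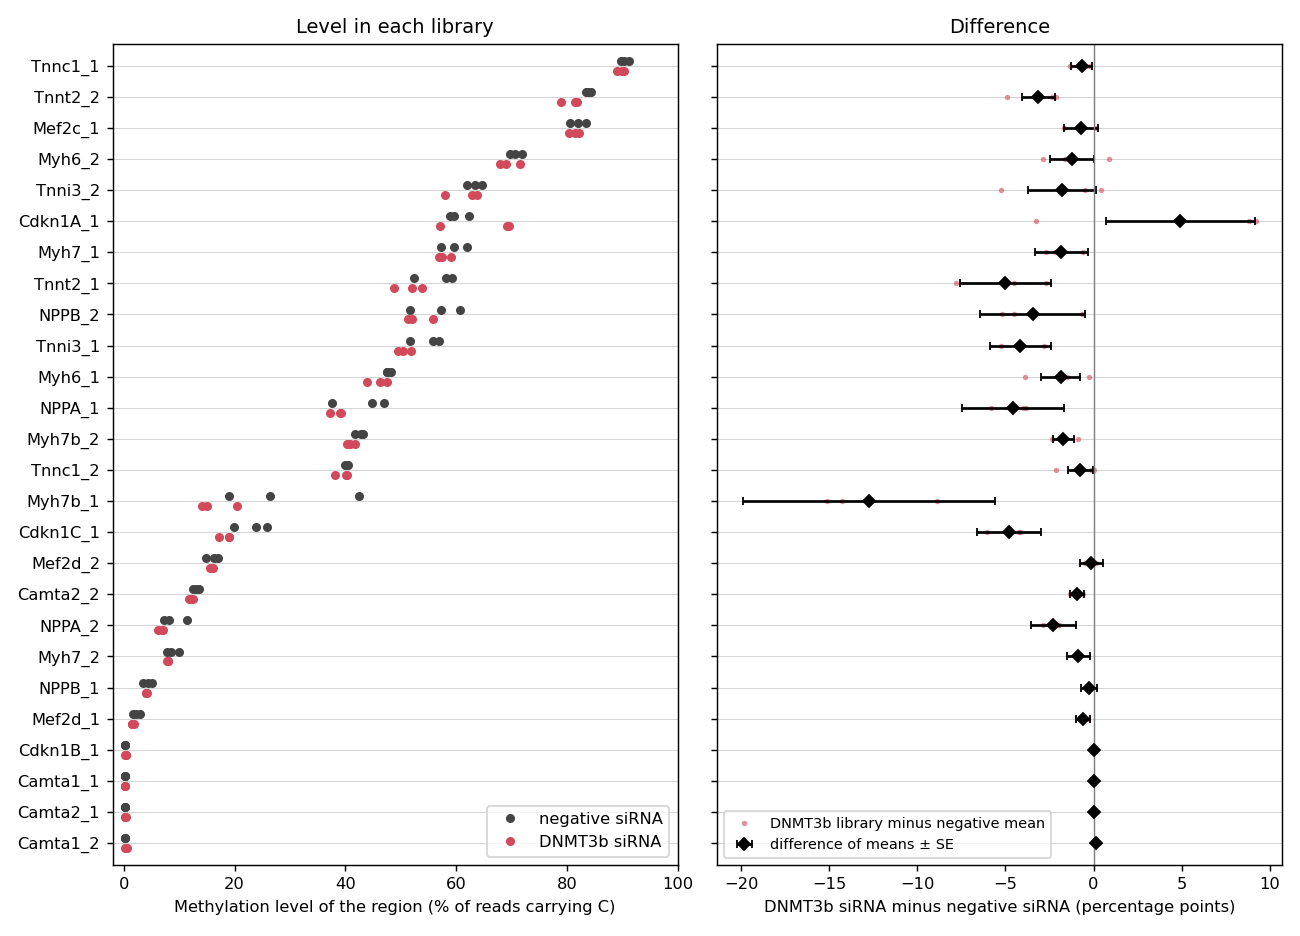
Methylation level of each tested region, as the mean over its CpGs in percent of reads carrying C, with one point for each of the 3 negative siRNA and 3 DNMT3b siRNA libraries (left), and the difference of the group means in percentage points with its SE, beside each DNMT3b library minus the negative mean (right). In 5 regions (Camta2_2, Cdkn1C_1, Myh7b_2, NPPA_2 and Tnnt2_2) all 3 DNMT3b points lie below all 3 negative points, and in none do they all lie above.

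None of the 310 CpGs (0%) and none of the 26 regions (0%) passed an adjusted p of 0.05 by edgeR's quasi-likelihood test with Benjamini-Hochberg adjustment. The smallest adjusted p was 0.503 among CpGs and 0.434 among regions. At an unadjusted p under 0.05 there were 29 CpGs, of which 26 were lower and 20 lay in Cdkn1C_1, and 2 regions. With the replicate number as a block there were 18 CpGs and 3 regions. Limma gave 32 CpGs and 3 regions, and DESeq2 36 CpGs and 5 regions, with 0 passing after adjustment by either tool. The smallest adjusted p was 0.456 among CpGs and 0.372 among regions by limma, and 0.168 and 0.097 by DESeq2. Counted without a test, 57 CpGs (18.4%) had each DNMT3b library under each negative one and 7 CpGs (2.26%) had them all above. For regions the counts were 5 (19.2%) and 0 (0%). The 10 CpGs with the smallest unadjusted p were all lower without overlap between the groups, each with an adjusted p of 0.503. Of these, 7 lay in Cdkn1C_1, 2 in Tnnt2_1 and 1 in NPPA_2.

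The sarcomere genes were lower in all 12 of their regions, with a median region difference of -1.80 points against -1.08 over all 26 regions. All 12 were among the 22 regions of at least 2%, of which 21 were lower. Of the 71 sarcomere CpGs, 67 were lower. In 23 of the 71 the DNMT3b libraries lay wholly below the negative libraries, and in 0 wholly above, where 18.4% of all CpGs lay wholly below. That 18.4% includes the 133 CpGs under 2%, of which 2.26% lay wholly below. At starting levels of 2% and more, grouped into classes, the share was 22.5% to 41.7%. Of the 23, 13 were in Tnnt2. Tnnt2, which encodes cardiac troponin T, the tropomyosin-binding subunit of the troponin complex, differed in the same direction along both amplicons. In Tnnt2_2 the level was 83.8%, 84.4% and 83.5% in the negative libraries and 81.8%, 81.5% and 79.0% in the DNMT3b libraries. The groups did not overlap. The difference was -3.13 points, a log2 odds ratio of -0.34 ± 0.13 (SE), with an unadjusted p of 0.029 and an adjusted p of 0.434 by edgeR. All 9 CpGs of the amplicon were lower, and at 8 of them the groups did not overlap, with offset 165 as the exception. The difference was widest at 3 neighbouring CpGs. At offset 224 the level was 70.9%, 69.6% and 70.1% against 66.4%, 66.2% and 60.8%. The third DNMT3b library was the lowest there, and the other two also lay below every negative library. Offset 233 differed by -5.64 points and offset 209 by -4.45 points.

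The other Tnnt2 amplicon, Tnnt2_1, had levels of 52.4%, 58.1% and 59.2% in the negative libraries and 48.8%, 53.9% and 52.1% in the DNMT3b libraries. The difference was -5.02 points (log2 odds ratio -0.32 ± 0.27 SE, adjusted p 0.524 by edgeR), and the groups overlapped. The overlap came from 1 of its 6 CpGs. At offset 195 the level was 35.1%, 60.5% and 77.1% with negative siRNA and 32.8%, 62.0% and 58.7% with DNMT3b siRNA, so the first library of each group was low. At each of the other 5 CpGs the groups did not overlap. Averaged over those 5, the level was 55.9%, 57.6% and 55.6% against 52.0%, 52.2% and 50.7%, a difference of -4.74 points. The least methylated CpG, at offset 420, had the largest relative difference: 10.9%, 12.1% and 11.8% against 5.82%, 7.27% and 5.26%. Its log2 odds ratio was -1.02 ± 0.30 (SE), with an unadjusted p of 0.0085 and an adjusted p of 0.503 by edgeR. At the most methylated CpG, offset 94, the levels were 91.3%, 92.2% and 90.9% against 89.0%, 89.0% and 86.8%. At offset 118 the 3 negative libraries lay within 76.0% to 76.3% and the 3 DNMT3b libraries within 71.5% to 72.6%.

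**Figure D2:**
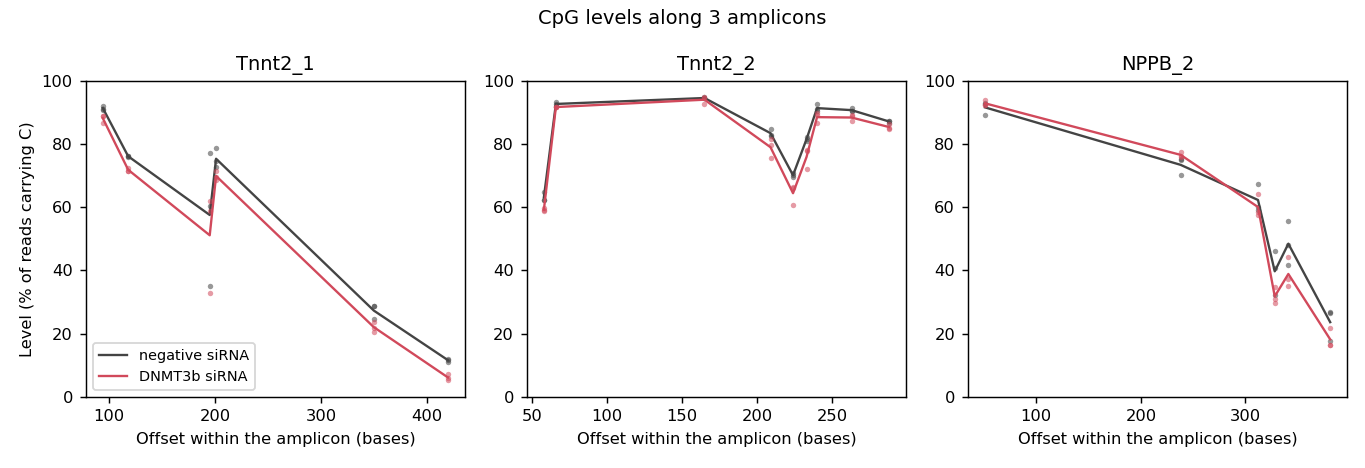
CpG methylation level in percent of reads carrying C along the amplicons Tnnt2_1, Tnnt2_2 and NPPB_2, by offset in bases, with a point for each library and a line through the mean of 3 libraries per group. In Tnnt2_2 the DNMT3b line runs below the negative line at all 9 CpGs, and in Tnnt2_1 the points of offset 195 spread widely in both groups.

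Myh7b encodes a slow type of myosin heavy chain found in heart and some skeletal muscle. Its 2 amplicons overlap at their ends and together reach from position -541 to position 224 relative to the start site. The proximal one, Myh7b_1, had the largest mean difference of all regions, -12.8 points, and also the widest spread. Its level was 42.4%, 19.1% and 26.5% in the negative libraries and 20.4%, 15.03% and 14.2% in the DNMT3b libraries. The lowest negative library lay below the highest DNMT3b library. The log2 odds ratio, taken on reads summed over the CpGs, was -1.59 ± 0.69 (SE), with an unadjusted p of 0.0501 and an adjusted p of 0.434 by edgeR. With reads pooled in this way the difference was -17.2 points, whereas the -12.8 points weight each CpG equally. Most of the difference came from the CpG at position 155611235 of chromosome 2, 8 bases before the start site. It read 67.0%, 13.7% and 31.9% with negative siRNA and 19.3%, 1.73% and 1.07% with DNMT3b siRNA, over at least 3641 reads in each library. At the CpG 8 bases past the start site the levels were 57.4%, 41.1% and 45.3% against 40.1%, 41.2% and 39.1%. Without the CpG at -8, the other 2 CpGs averaged 30.1%, 21.8% and 23.7% against 21.0%, 21.7% and 20.7%, a difference of -4.04 points without overlap. Without the first negative library the difference of the whole amplicon was -6.22 points, and without the second it was -17.9 points.

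In the distal amplicon, Myh7b_2, the level was 41.8%, 42.8% and 43.3% with negative siRNA and 40.8%, 41.7% and 40.3% with DNMT3b siRNA. The groups were apart by a narrow margin and the difference was -1.71 points (log2 odds ratio -0.15 ± 0.10 SE, adjusted p 0.524 by edgeR). The largest difference of its CpGs was -3.22 points at offset 352, and only the CpG at offset 122 had no overlap.

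Tnni3, which encodes cardiac troponin I, the inhibitory subunit of troponin, was lower at all 7 CpGs of Tnni3_1. The amplicon lies at chromosome 7, 4522271 to 4522698, over a start site inside the annotated gene, whose span reaches further upstream. The levels of the region were 51.7%, 55.8% and 56.9% with negative siRNA and 49.5%, 51.9% and 50.4% after DNMT3b siRNA. They differed by -4.16 points. The highest DNMT3b library lay just above the lowest negative library. The CpG that spans this start site was the least methylated of the 7, at 32.7% with negative siRNA and 29.1% with DNMT3b siRNA. The largest difference, -6.25 points, was at the CpG 183 bases downstream. In Tnni3_2 6 of 7 CpGs were lower, and the exception, offset 120, was higher by 3.25 points over as few as 133 reads. In Myh6_1, from the gene of the alpha myosin heavy chain, the CpG at offset 43 differed by -4.91 points without overlap, whereas offset 362, the one CpG downstream of the start, was higher by 2.80 points. The start site used for Myh6_1 also lies inside the annotated gene, whose span reaches further upstream. The Myh7 amplicons, from the gene of the beta myosin heavy chain, differed by -1.83 points (Myh7_1) and -0.86 points (Myh7_2), and 1 of the 9 CpGs of Myh7_1, offset 290, was higher, by 0.35 points. Tnnc1, the gene of cardiac troponin C, had the smallest differences of the sarcomere genes, -0.68 points in Tnnc1_1 and -0.75 in Tnnc1_2. Tnnc1_2 spans positions -1375 to -971 relative to the Tnnc1 start site and was placed by its match to the promoter of the neighbouring gene Nisch. Tnnc1_1 stood at 90.5% ± 0.80 with negative siRNA and 89.8% ± 0.61 with DNMT3b siRNA (SD, n = 3 each). Tnnc1_2 stood at 40.3%, 40.0% and 40.6% with negative siRNA and 40.3%, 40.1% and 38.2% with DNMT3b siRNA. Its difference came mostly from the third DNMT3b library, the only one outside the range of the negative libraries.

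The natriuretic peptide genes were lower in all 4 regions, with a median region difference of -2.87 points, and at 28 of 33 CpGs. Nppa encodes atrial natriuretic peptide, which the embryonic ventricle also makes. In NPPA_1 the level was 44.8%, 37.6% and 47.0% with negative siRNA and 39.3%, 39.1% and 37.3% with DNMT3b siRNA. The second negative library was as low as the DNMT3b libraries, so the groups overlapped. The difference was -4.56 points (log2 odds ratio -0.18 ± 0.26 SE, adjusted p 0.657 by edgeR), with -7.34 points without the second negative library and -2.64 points without the third. All 11 CpGs were lower on average, the CpG 148 bases downstream of the start by the most, -7.03 points. Only the CpG that spans the annotated start site had no overlap, at 16.6%, 10.6% and 13.1% against 10.1%, 10.4% and 10.2%. Levels climbed from 9.97% at 142 bases upstream to 90.5% at 201 bases downstream in the negative libraries, with a dip at the annotated start site. The DNMT3b libraries had the same dip.

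The upstream amplicon, NPPA_2, was less methylated, with levels of 8.23%, 7.26% and 11.4% against 6.99%, 6.92% and 6.08%. All 6 of its CpGs were lower and the groups did not overlap, with a difference of -2.29 points (log2 odds ratio -0.27 ± 0.29 SE, adjusted p 0.572 by edgeR). Without the third negative library, the highest of its group, the difference was -1.08 points. At offset 26 the levels were 10.4%, 9.62% and 12.6% against 6.97%, 6.04% and 5.84%, with an unadjusted p of 0.0074. Offset 32 was at 8.93% in the second negative library and between 0.64% and 1.26% in the other 5 libraries.

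Nppb encodes brain natriuretic peptide. NPPB_2 held levels of 60.7%, 51.7% and 57.2% with negative siRNA and 55.9%, 51.3% and 52.0% with DNMT3b siRNA. The groups overlapped and the difference was -3.46 points. Direction differed along the amplicon. The CpGs at offsets 51 and 238 were higher by 1.29 and 3.16 points, whereas those at offsets 312, 328, 341 and 381 differed by -2.23, -7.94, -9.57 and -5.45 points. At offset 238 the levels were 75.2%, 70.1% and 75.003% against 76.4%, 75.8% and 77.7%. It was the only CpG above 2% at which all 3 DNMT3b libraries lay above all 3 negative libraries. At offset 341 they were 55.7%, 41.7% and 48.0% against 44.2%, 35.1% and 37.4%, where the second negative library overlapped the first DNMT3b library. In NPPB_1, whose CpGs were weakly methylated, the difference was -0.25 points, and the 3 CpGs that were higher (offsets 97, 211 and 279) were so by at most 0.17 points.

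**Figure D3:**
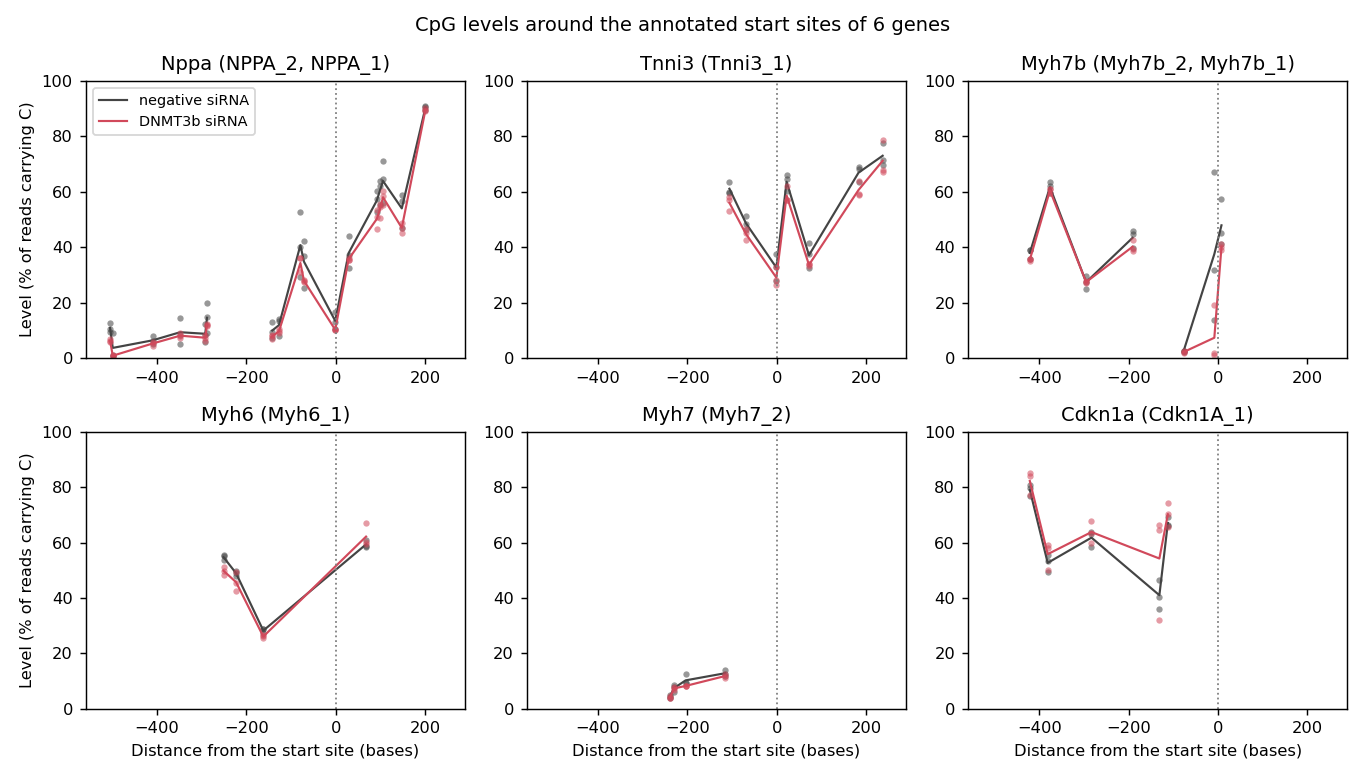
CpG methylation level in percent of reads carrying C against distance in bases from the annotated start site (dotted line) for 6 genes, with a point for each library and a line through the mean of 3 libraries per group. The Nppa and Tnni3 lines of both groups dip at the start site with the DNMT3b line below, the Myh7b points spread widely at the CpG 8 bases upstream, and the Cdkn1a line of the DNMT3b group lies above.

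The CDK inhibitor genes held both Cdkn1C_1, with the most tested and the most non-overlapping CpGs, and the one methylated region that was higher, Cdkn1A_1. Of 3 regions, 1 was lower, and of 80 CpGs 55 were lower. The median region difference was 0.016 points, between 2 regions of opposite sign. Cdkn1c encodes p57, an inhibitor of cyclin-dependent kinases. Cdkn1C_1 was the region with the most CpGs for its length, 13.3 per 100 bases, with 52 tested. Its level was 25.8%, 23.9% and 19.99% with negative siRNA and 19.1%, 19.0% and 17.2% with DNMT3b siRNA. The lowest negative library lay just above the highest DNMT3b library. The difference was -4.81 points, a log2 odds ratio of -0.47 ± 0.19 (SE), with an unadjusted p of 0.036 and an adjusted p of 0.434 by edgeR. Without the third negative library, the lowest of its group, it was -6.42 points, and without the first it was -3.53 points. Of its 52 CpGs, 48 were lower and 24 had no overlap, where 18.4% of all CpGs lay wholly below. Tnnt2_2 (8 of 9) and Tnnt2_1 (5 of 6) had larger shares without overlap. The CpGs of Cdkn1C_1 all started between 2% and 50%. Outside Cdkn1C_1 the share wholly below was 24.2% at 2% to 20% and 10.7% at 20% to 50%.

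Along the amplicon methylation formed alternating stretches of higher and lower level, which were marked off after the profile was seen. At offsets 24 to 131, 19 CpGs averaged 32.8% ± 3.0 with negative siRNA and 27.6% ± 2.3 with DNMT3b siRNA (SD, n = 3 each), and all 19 were lower. At offsets 151 to 251, 14 CpGs averaged 11.8% ± 2.5 against 8.47% ± 0.22, and 12 were lower. At offsets 258 to 327, 14 CpGs averaged 26.3% ± 4.1 against 19.6% ± 0.19, and all 14 were lower, 11 of them without overlap. In this last stretch the negative libraries stood at 29.6%, 27.7% and 21.8%, while the DNMT3b libraries stood at 19.7%, 19.8% and 19.4%. The DNMT3b libraries were close to one another and the negative libraries were not. As a ratio to the negative level, the 3 stretches stood at 0.839, 0.717 and 0.745. The remaining 5 CpGs, at offsets 340 to 373, averaged 9.93% against 8.13%.

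The CpG with the smallest unadjusted p of all 310 was offset 237 of Cdkn1C_1, at 15.9%, 11.8% and 11.7% against 8.52%, 8.31% and 8.06%. Its log2 odds ratio was -0.73 ± 0.21 (SE), with p 0.0072 before and 0.503 after adjustment by edgeR. Offset 195 was at 10.6%, 10.3% and 7.14% against 4.58%, 3.76% and 6.91%. The largest difference, -9.74 points, was at offset 24, but as few as 142 reads covered it. Offsets 287 and 291 each differed by -9.56 points over at least 3190 reads. At offset 287 the levels were 39.7%, 33.1% and 26.6% against 23.0%, 24.4% and 23.2%. The other CpGs among the 10 with the smallest p, offsets 190, 209, 283 and 340, differed by -2.97, -5.86, -6.67 and -4.46 points. Offsets 153, 160, 347 and 368 were higher, by 0.10 to 0.75 points, and the groups overlapped at all 4.

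**Figure D4:**
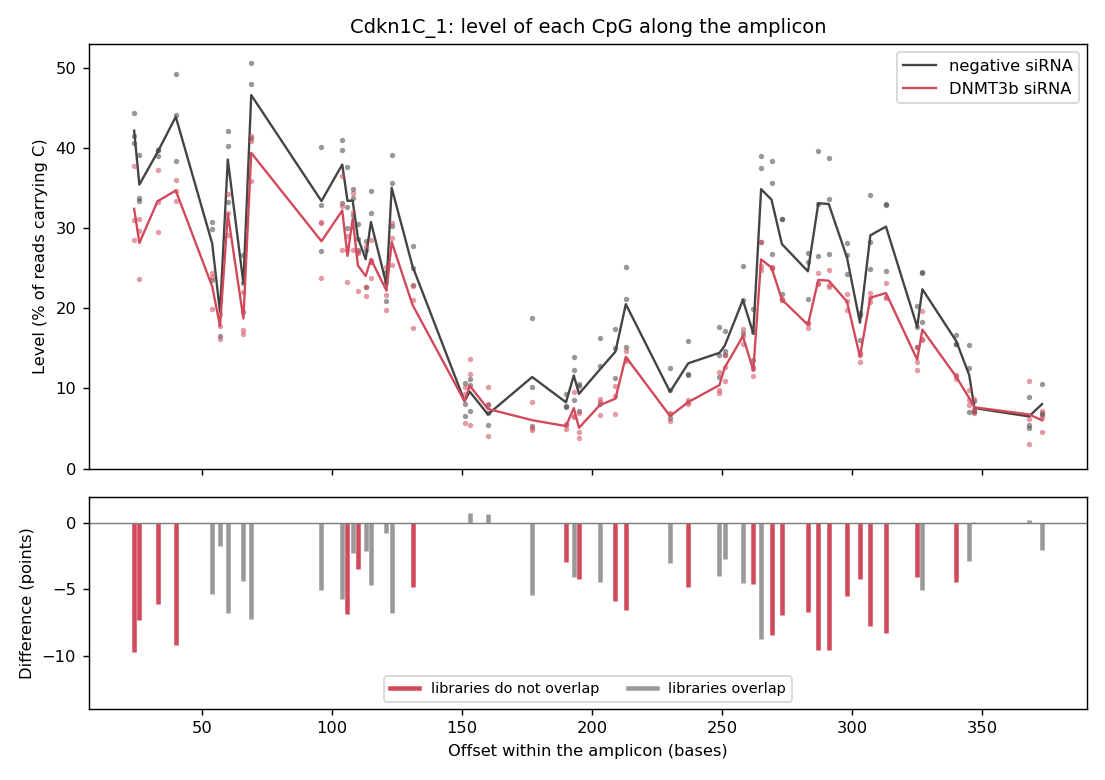
CpG methylation level in percent of reads carrying C along Cdkn1C_1, by offset in bases, with a point for each library and a line through the mean of 3 libraries per group. The DNMT3b line runs below the negative line at 48 of 52 CpGs, and the lower panel gives each difference in points as a bar, red at the 24 CpGs where the groups do not overlap and grey elsewhere.

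Cdkn1a encodes p21, another inhibitor of cyclin-dependent kinases. Cdkn1A_1 spans positions -504 to -81 relative to the start site, at chromosome 17, 29090475 to 29090898. Its level was 62.4%, 58.8% and 59.7% with negative siRNA against 57.0%, 69.5% and 69.1% with DNMT3b siRNA. The first DNMT3b library lay under every negative library and the other two above them. The difference was 4.93 points (log2 odds ratio 0.29 ± 0.23 SE, adjusted p 0.524 by edgeR), and 9.04 points without that DNMT3b library. It was 2.79 points without the second DNMT3b library and 2.98 points without the third. The CpG 131 bases upstream, at position 29090848, had the widest range, 46.6%, 36.1% and 40.3% against 32.1%, 66.2% and 64.4%. The other 4 CpGs were higher by 2.01 to 3.18 points, with the first DNMT3b library the lowest of its group at all 4. Averaged over those 4, the levels were 66.3%, 64.5% and 64.5% against 63.3%, 70.4% and 70.3%, a difference of 2.86 points with overlap. Cdkn1b encodes p27, and its CpG-rich amplicon Cdkn1B_1 was almost free of methylation, at 0.266% to 0.323% in the 6 libraries.

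CpGs at which libraries of one group disagree this widely were few. An SD above 15 points occurred at 4 CpGs: the CpG at -8 of Myh7b, offset 195 of Tnnt2_1, the CpG at -131 of Cdkn1a and offset 49 of Tnni3_2. The regions of the first 3 are given above with and without them. Bisulfite reads do not tell a T in the genome from a converted C, and the genotype at these CpGs was not analysed here.

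Among the transcription factor genes, 4 of 7 regions were lower, with a median region difference of -0.12 points, and 63 of 126 CpGs were lower. Most of these CpGs carried almost no methylation: in Camta1_1, Camta1_2 and Camta2_1 the highest region level of any of the 6 libraries was 0.50%. The highest level of a single CpG there was 2.84%, at offset 365 of Camta1_1 in the second negative library. The means of the 3 regions were higher by 0.012, 0.15 and 0.047 points, but on summed reads the log2 odds ratio was -0.06 in Camta1_1 and -0.26 in Camta1_2. Camta1 and Camta2 encode calmodulin-binding transcription activators. In Camta2_2 the level was 12.6%, 13.1% and 13.7% with negative siRNA and 11.8%, 12.5% and 12.2% with DNMT3b siRNA. The groups did not overlap, although the second DNMT3b library lay just under the first negative one. The difference was -0.94 points (log2 odds ratio -0.11 ± 0.15 SE, adjusted p 0.654 by edgeR). Its largest difference was at offset 299, with 15.4%, 14.1% and 14.7% against 12.5%, 12.8% and 11.9%.

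Mef2c and Mef2d encode MADS-box factors that act in heart muscle development. Mef2c_1 was highly methylated and differed by -0.71 points, with 3 of its 6 CpGs (offsets 64, 115 and 166) higher by 0.08 to 1.02 points. Mef2d_1 differed by -0.62 points and Mef2d_2 by -0.12 points. The median CpG of Mef2d_1 differed by -0.22 points. The level of Mef2d_1 with negative siRNA, 2.25%, was above 2% only because of offset 26, at 21.8% over 71 to 97 reads. In Mef2d_2 the CpG at offset 50 was higher by 3.88 points and those at offsets 82 and 195 by 0.80 and 0.82 points. In Mef2d_1 offsets 74, 77 and 339, all weakly methylated, were higher by 0.009 to 0.15 points. The end of Mef2d_2 repeats the start of Mef2d_1, so 4 CpGs were measured in both amplicons and the 310 CpGs hold 306 distinct ones. One of them was the most methylated of the 4. In Mef2d_1 it read 24.1%, 15.4% and 25.8% against 11.3%, 13.3% and 20.2%, over 71 to 97 reads, a difference of -6.85 points with overlap. In Mef2d_2 it read 19.4%, 15.2% and 21.2% against 14.9%, 14.1% and 15.1%, over 2278 to 4585 reads, a difference of -3.90 points without overlap. At the other 3 shared CpGs the difference lay between -0.04 and 0.15 points in Mef2d_1 and between -0.77 and 0.06 points in Mef2d_2.

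CpGs with almost no methylation had about as many higher as lower means. Of the 133 CpGs under 2% in the negative libraries, 58 were lower, with a median difference of 0.009 points. They hold 6 of the 7 CpGs at which the DNMT3b libraries lay wholly above. At 5 of the 133, all in Camta1, no read carried C in the negative libraries. With 46 to 462 reads there, a count of 0 allows a level of up to 0.649% to 6.52%. Of the 177 CpGs at or above 2%, 155 were lower, and 107 of 125 when Cdkn1C_1 is left out.

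The size of the difference varied with the starting level. The median difference was -1.55 points at the 55 CpGs of 2% to 20%, -5.15 points at the 58 CpGs of 20% to 50%, -2.06 points at the 40 CpGs of 50% to 80% and -1.02 points at the 24 CpGs above 80%. Each DNMT3b library, taken against the negative mean, had its lowest class median among CpGs of 20% to 50%, at -4.22, -4.56 and -6.63 points. Since the negative libraries set both the class and the difference, the CpGs were also classed by their level in the DNMT3a libraries. The medians of the same 4 classes were then -1.88, -5.26, -2.23 and -0.96 points. Cdkn1C_1 holds 22 of the 55 and 30 of the 58 CpGs of the lower of these classes. Without it, the median was -0.87 points at 33 CpGs of 2% to 20% and -3.17 points at 28 CpGs of 20% to 50%. As a log2 odds ratio the 4 classes had medians of -0.25, -0.40, -0.14 and -0.20. Without Cdkn1C_1 these were -0.14, -0.19, -0.14 and -0.20, and the class of 20% to 50% was no longer the lowest. Nearly fully methylated CpGs had the smallest differences in points of the 4 classes, and 10 of 24 (41.7%) were lower with no overlap between the groups, 6 of them in Tnnt2_2. The share was 29.1%, 32.8% and 22.5% in the 3 classes below and 18.4% over all CpGs.

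**Figure D5:**
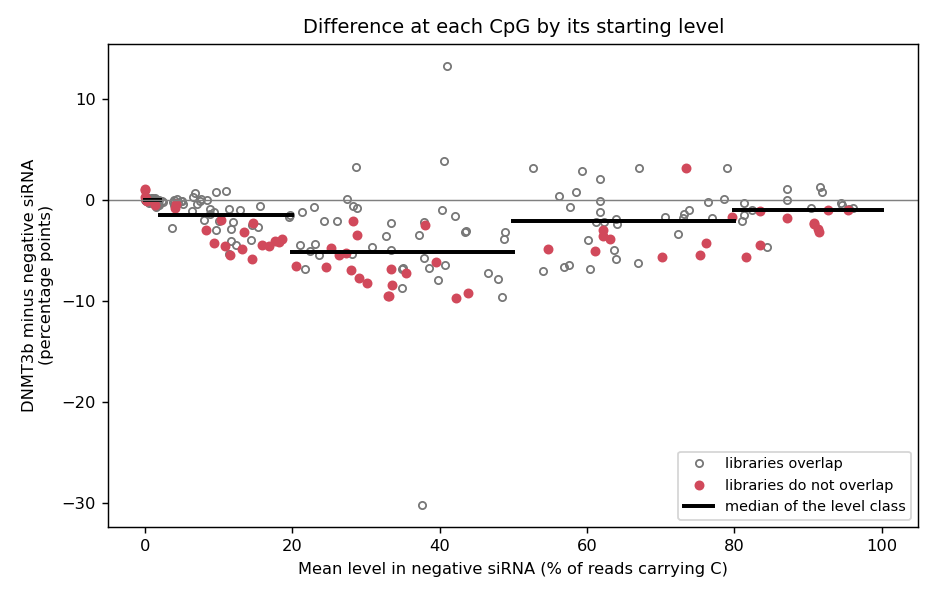
Difference in methylation level with DNMT3b siRNA, in points, against the mean level in the negative siRNA libraries in percent, with one point for each of 310 CpGs, filled where the libraries of the 2 groups do not overlap, and a bar at the median of each level class. Most CpGs above 2% lie below the zero line, and the deepest run of them is at levels of 20% to 50%, where the median is -5.15 points.

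CpGs were also grouped by the base that follows them. Among CpGs of at least 2%, the median difference was -2.29 points before A (34 CpGs), -3.67 before C (58), -2.05 before G (46) and -2.12 before T (39). Without Cdkn1C_1 the 4 medians were -1.56, -1.70, -1.55 and -1.77 points. As a median log2 odds ratio without Cdkn1C_1, the value before C was -0.21, against -0.13 before A and -0.14 before both G and T. In the placed amplicons, 33 of 39 CpGs of at least 2% upstream of a start site were lower, with a median of -1.70 points (26 of 32 and -2.13 points without the distant Tnnc1_2), and 11 of 12 downstream of one, with a median of -5.42 points. The downstream CpGs came from only 4 amplicons, and most from NPPA_1 and Tnni3_1. They also started from a higher median level, 59.9% against 34.8%. No test was made between the 2 sides.

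The DNMT3a siRNA libraries were compared with the same 3 negative libraries, so the 2 sets of differences share their controls and are given side by side only. Averaged over regions, the DNMT3a libraries stood at 34.84%, 37.95% and 34.68%, so 1 of the 3 lay above the negative libraries, whereas no DNMT3b library did. In Cdkn1C_1 they read 17.8%, 22.8% and 21.5%, in Tnnt2_2 77.5%, 82.4% and 79.0%, and in Myh7b_2 35.5%, 40.5% and 37.4%. In NPPA_1 they read 45.8%, 50.6% and 39.8% and in NPPB_2 62.8%, 66.9% and 58.2%. Every sarcomere region but Myh6_1 (0.32 points) also had a lower mean with DNMT3a siRNA than with negative siRNA. In Tnnt2_2 that difference was -4.30 points and in Myh7b_2 -4.81, against -3.13 and -1.71 with DNMT3b siRNA. In Myh7b_1 it was -0.21 points and in Tnni3_1 -3.19, against -12.8 and -4.16. The difference between the 2 knockdowns was not tested.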

How the data were processed

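Bisulfite amplicon DNA was made into Nextera XT libraries and sequenced on a MiSeq, per the labels' protocols. The submitters' processing notes name FastQC, Bismark, Bowtie2 and the mm10 build, and versions are not given in the sources used here. The deposited tables give, for each listed cytosine of an amplicon, the coverage (a read count) and the C level in percent, per the file headers. Their product was whole, within 0.01 reads, for 23884 of 23884 values and gave the methylated and unmethylated counts. CpGs with at least 30 reads in all 9 libraries were kept. Region levels are means over CpGs.

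The methylated and unmethylated counts of all 9 libraries, 3 for each of 3 siRNAs, entered one fit with edgeR 4.0.16 (quasi-likelihood, robust) in R 4.3.3, for CpGs and, summed, for regions, with Benjamini-Hochberg adjustment over all of them. Limma 3.58.1 (log2 ratio with a prior count of 2), DESeq2 1.42.0, other coverage minimums, left-out libraries and a replicate block were alternatives. Same-numbered libraries deviated together over 177 CpGs (correlations 0.41, 0.22 and 0.12), so the numbers were taken as pairs in the block alternative only. The main tests are unpaired. At 0.20 and 0.18, 2 differently numbered pairs exceeded the third same-numbered pair.

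Amplicons were placed by matching their listed cytosines to RefSeq promoter windows of GRCm38 (250 bases before to 50 after the start). Gene groups, regions and lists were chosen with earlier results of these data known. All 15 genes are named. Regions are given library by library where the groups did not overlap or the mean difference was among the 5 largest. CpGs are named where they had the largest difference in such a region, one of the 10 smallest p-values, or, in regions of 5 or more CpGs, a sign against their region (not listed for Camta1_1, Camta1_2, Camta2_1 and Cdkn1B_1, all near 0). Values for Tnni3, Myh6, NPPB_2 and the CpGs of widest spread were added after they were seen.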

Additional observations from a re-analysis of the deposited data

How the results depend on the processing

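Under every alternative run, 0 CpGs and 0 regions passed an adjusted p of 0.05, including edgeR with a replicate block, limma, DESeq2, coverage minimums of 10 and 100, the 6 compared libraries alone and CpGs of 2% to 98% alone. The block changed no call and left the mean difference over regions at -1.86 points, with an exact sign-flip p of 0.25, the smallest that 3 pairs allow. Without one library at a time, the mean difference ranged from -2.32 to -1.53 points, CpGs at an unadjusted p under 0.05 from 10 to 40, and regions from 0 to 3. The 40 CpGs came without the third negative library and the 10 without the first.

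The mean difference was -1.42 points without Myh7b_1, -1.74 without Cdkn1C_1, -2.36 over CpGs of 2% to 98%, -2.14 from pooled reads and -1.67 with each CpG weighted equally. The median over regions differed by -1.89 points with an exact permutation p of 0.3, so the groups overlapped on it. Without any one DNMT3b library the exact p of the mean was 0.2, with the remaining libraries still not overlapping. Pooling reads over a region moved Myh7b_2 from -1.71 to -2.60 points, and the cause was not tested. With class limits at 5%, 35% and 65%, the lowest median was -3.72 points, at 35% to 65%. The mean difference and the 9 region differences that were recomputed kept their sign. Counted on summed reads, 23 of 26 regions were lower, since Camta1_1 and Camta1_2, both near 0, differ in sign between the mean level and the odds ratio. Leaving out the widest-spread CpG, chosen after seeing the data, is given beside each region. Depth limits CpGs read as few as 35 times, and 3 libraries per group limit every test.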
